A study of Mus musculus with 14 samples.

Results

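Corticosteroid signalling was followed in mouse brain through 10 genes: the receptors Nr3c1 and Nr3c2 and the target genes Sgk1, Tsc22d3, Fkbp5, Zbtb16, Klf9, Pdk4, Sult1a1 and Cdkn1a. They were chosen by symbol from the rows of the deposited expression table, and all 10 were found among its 23375 genes and passed the filter that left 14322 tested genes. These genes and the gene lists used further on were chosen with earlier results of these data known. Counts set beside the share of all tested genes are therefore descriptive. Poly(A) RNA of brain was sequenced in 14 libraries, which form 7 groups of 2. At embryonic day E19.5 the groups were wild type, KO2 and KO7. In adults, whose age the labels do not give, they were wild-type set 1, KO2, wild-type set 2 and KO3. A DMR is a differentially methylated region that controls imprinted genes. In KO2 the IG-DMR and H19-DMR were deleted, and in KO3 the Rasgrf1-DMR as well. In KO7 the deletions were in the DMRs of Gnas, Peg3, Kcnq1, Snrpn, Igf2r, Grb10 and Nespas. The knockout animals were made with haploid embryonic stem cells carrying these deletions. As the study is known, though its labels do not state it, KO2 and KO3 animals carry genomes from a pair of mothers and KO7 animals from a pair of fathers, so that the deletions and the parental origin of the genomes cannot be told apart. The labels do not say that the libraries of a group came from separate animals, and p-values then measure only the spread between these samples. No library received a corticosteroid, per the labels.

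Glucocorticoids leave the adrenal gland under the control of hypothalamic Crh and pituitary Pomc products, cross into the brain and bind 2 nuclear receptors. The mineralocorticoid receptor (Nr3c2) has the higher affinity and is most abundant in hippocampal neurons, whereas the glucocorticoid receptor (Nr3c1) is expressed widely in neurons and glia and is filled mainly at stress levels of hormone. A hormone-bound receptor moves to the nucleus, binds palindromic DNA sites and raises transcription of genes such as Fkbp5, Tsc22d3 and Sgk1. The targets are not private to these receptors: Cdkn1a is a classic p53 target, Pdk4 responds to fasting through PPARs, and Sgk1 responds to cell stress and growth factors.

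The promoters of Sgk1, Tsc22d3 and Sult1a1 are shown because these genes passed the test in more than 1 of the comparisons with wild type (Sult1a1 in E19.5 KO2 and adult KO3, the others in both adult knockouts), and that of Fam107a because it moved most in E19.5 KO2 among the other glucocorticoid-induced genes described further on. Each is the RefSeq window of 300 bases on GRCm38.p6, from 250 bases before the start site to 50 after it, read 5′ to 3′ on the gene's strand. Where a gene has several start sites the window with the most matches is printed. Capitals mark matches to the receptor palindrome, the letters GNACA and TGTNC with NNN between them, or to its arm AGAACA on either strand, and the palindrome can overlap the arm.
Sgk1 (chr10:21993640-21993939, plus strand): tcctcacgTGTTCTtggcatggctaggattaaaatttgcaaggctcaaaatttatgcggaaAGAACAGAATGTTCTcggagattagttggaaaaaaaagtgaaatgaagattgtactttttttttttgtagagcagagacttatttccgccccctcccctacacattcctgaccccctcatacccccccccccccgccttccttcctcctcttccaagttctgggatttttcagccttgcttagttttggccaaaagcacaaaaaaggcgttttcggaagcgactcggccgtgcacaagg
Tsc22d3 (chrX:140600473-140600772, minus strand): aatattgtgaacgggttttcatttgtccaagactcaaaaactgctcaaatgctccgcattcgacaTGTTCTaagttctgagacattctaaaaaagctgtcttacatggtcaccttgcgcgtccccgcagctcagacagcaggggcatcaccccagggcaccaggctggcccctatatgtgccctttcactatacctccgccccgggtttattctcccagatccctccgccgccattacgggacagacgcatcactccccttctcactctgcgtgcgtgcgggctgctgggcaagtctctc
Sult1a1 (chr7:126676369-126676668, minus strand): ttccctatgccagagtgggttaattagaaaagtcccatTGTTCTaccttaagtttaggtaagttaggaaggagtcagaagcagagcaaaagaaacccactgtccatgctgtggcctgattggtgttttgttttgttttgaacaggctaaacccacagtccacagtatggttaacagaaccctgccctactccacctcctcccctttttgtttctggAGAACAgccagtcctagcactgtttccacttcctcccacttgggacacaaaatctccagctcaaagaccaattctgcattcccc
Fam107a (chr14:8309728-8310027, minus strand): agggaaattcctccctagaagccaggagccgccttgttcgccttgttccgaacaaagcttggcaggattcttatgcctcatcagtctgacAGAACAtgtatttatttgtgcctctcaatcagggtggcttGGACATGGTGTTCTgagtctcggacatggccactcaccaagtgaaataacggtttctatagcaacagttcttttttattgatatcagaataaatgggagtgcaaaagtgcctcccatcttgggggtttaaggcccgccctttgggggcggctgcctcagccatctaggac
The Sgk1 window holds the palindrome GAACAGAATGTTC, whose first base lies at -188 from the start site, and matches to the arm overlap it on both sides. The Fam107a window holds the palindrome GGACATGGTGTTC at -120. Among 32851 windows of this length 0.475% hold the palindrome, against 1 of the 16 windows of the 8 genes that had any (Nr3c1 and Zbtb16 had none), and 4 of the 36 windows of the other glucocorticoid-induced genes (3 of 28 genes, since a pair of overlapping Fam107a windows holds the same match). The arm AGAACA occurs in 19% of all windows and in 5 of the 16, which belong to Sgk1, Tsc22d3 and Sult1a1, but in 3 of the 36 windows of the other induced genes (8.33%), below the share of all windows. A match describes letters and is no evidence of binding, and no binding was measured.

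Values are FPKM, fragments scaled to transcript length and library total, so levels can be compared between genes, and depth is unknown because the table carries no read totals. Between 12701 and 13398 genes per library reached 1 FPKM, and libraries of a group had a Pearson's r across tested genes of 0.964 to 0.983. The columns of adult KO3 and wild-type set 2 were handled differently from the other 10 before deposit: 9994 genes are listed at 0 in all 4, of which 6396 have a value above 0 elsewhere, so each adult knockout was compared with the wild types whose columns were handled in the same way. No member is listed at 0 in any library. Adult KO3 replicate 2 stands apart, with 546 tested genes more than 1 log2 unit from its mate against 50 to 181 in the other groups, and with a median distance of 0.522 log2 units to its stage mates against 0.328 to 0.392 in the other adult libraries; results that rest on it are given without it. The tissue label is borne out by the neuronal gene Snap25, at 92.4 to 179 FPKM at E19.5 and 785 to 1144 in adults. The deletions remove control elements, which no transcript reads directly; the imprinted gene Rasgrf1 had 0.67 to 2.94 FPKM in E19.5 KO2 against 12.03 to 12.7 in wild type, 14.8 to 19.7 in adult KO2 against 89.5 to 100.4 in set 1, and 85.3 to 103.6 in KO3 against 97.2 to 149.4 in set 2. Both E19.5 KO7 libraries carried the Y-linked Eif2s3y at 22.6 and 25.0 FPKM and Xist at 0.0159 and 0.0402, while E19.5 wild type had Xist at 106 and 117, so sex and genotype cannot be told apart in that comparison. E19.5 KO2 had Eif2s3y at 0 and 0.0274 FPKM, so sex and line cannot be told apart between KO7 and KO2 either. Xist also differed within E19.5 KO2, at 1.498 and 84.0. In bulk tissue, fewer cells of a type and less RNA per cell cannot be told apart.

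**Figure D1:**
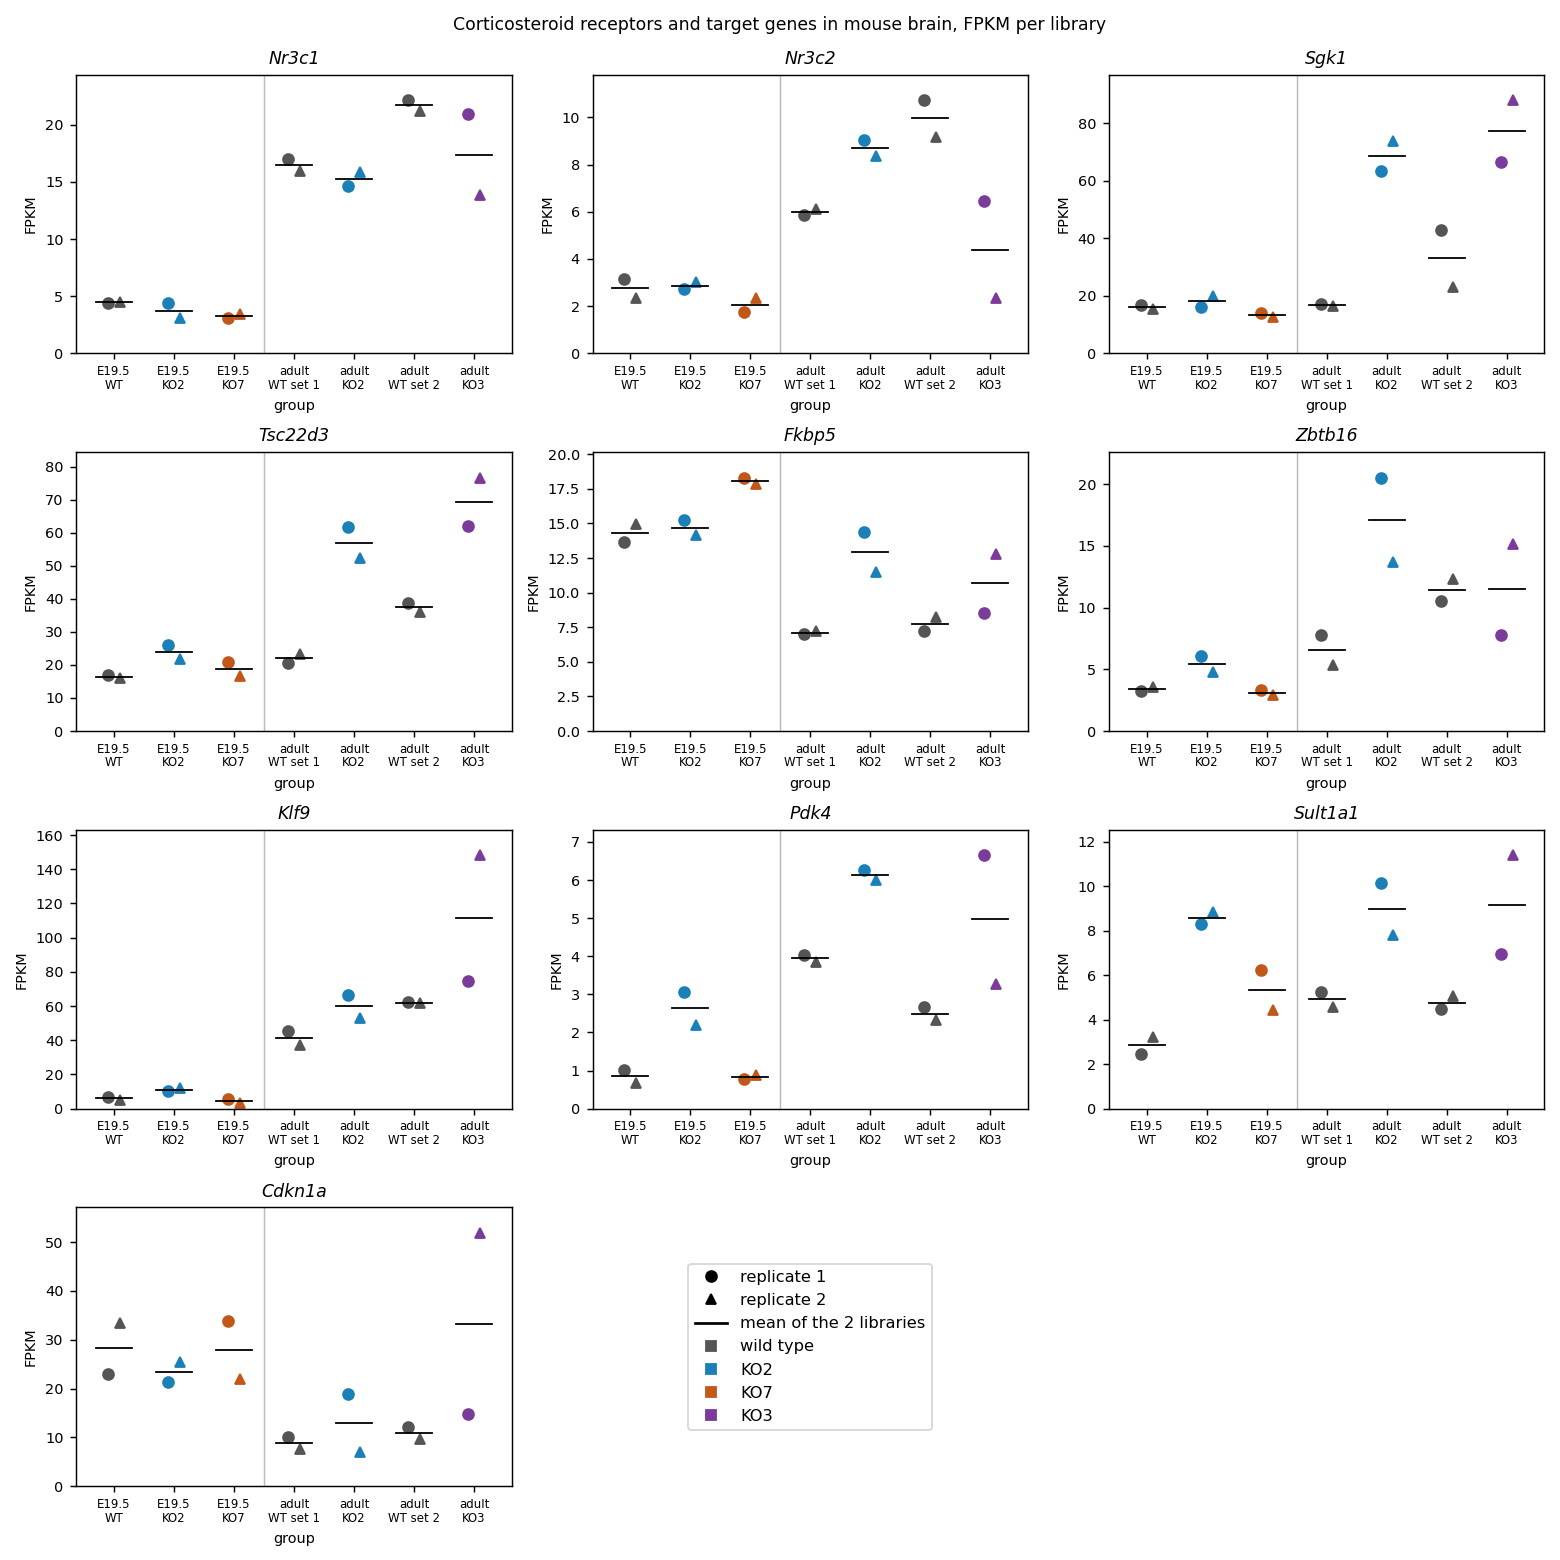
FPKM (linear axis from 0) of the 10 genes in the 7 groups, with a circle for replicate 1, a triangle for replicate 2 and a line at the mean of the 2 libraries; the vertical line parts E19.5 from adult. Sgk1 and Tsc22d3 lie above the wild-type set in both adult knockouts, and Nr3c2, Klf9 and Cdkn1a differ widely between the KO3 libraries.

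The glucocorticoid receptor transcript did not pass the test in any comparison of a knockout with wild type. At E19.5 the wild-type libraries held Nr3c1 at 4.42 and 4.49 FPKM, the KO2 libraries at 4.39 and 3.09, and the KO7 libraries at 3.05 and 3.45. Adult levels were 17.0 and 15.9 FPKM in set 1, 14.6 and 15.9 in KO2, 22.2 and 21.2 in set 2, and 20.9 and 13.9 in KO3. Each knockout group lay below its wild type without overlap, by 0.10 (adult KO2) to 0.36 (E19.5 KO7) on the log2(FPKM + 1) scale, and limma's adjusted p ranged from 0.196 to 0.954; of all tested genes, 16.2% (adult KO2) to 29.9% (E19.5 KO2) lay below in that way, with 29.6% in E19.5 KO7 and 26.1% in adult KO3. The order of the group means ran from E19.5 KO7 through E19.5 KO2 and wild type to adult KO2, set 1, KO3 and set 2; the E19.5 KO2 and KO7 libraries overlap, and the KO3 libraries lie on either side of the set 1 and adult KO2 libraries. Without KO3 replicate 2 the KO3 difference was -0.05 (adjusted p = 0.960), and without KO3 replicate 1 it was -0.61 and passed (0.0103), so that it rests on replicate 2.

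The mineralocorticoid receptor transcript fell in adult KO3. Nr3c2 had 10.7 and 9.18 FPKM in set 2 and 6.45 and 2.34 in KO3, a difference of -1.13 ± 0.29 (SE) log2 units (adjusted p = 0.0227). Both KO3 libraries lay below both wild-type libraries, but they lie far apart from each other. Without KO3 replicate 2 the difference was -0.55 (adjusted p = 0.120), and it missed the threshold without either wild-type library (0.116 and 0.0665), whereas without KO3 replicate 1 it was -1.71 (0.000112). In adult KO2 Nr3c2 had 9.06 and 8.36 FPKM against 5.87 and 6.10 in set 1, above it in both libraries, which did not pass (0.47, adjusted p = 0.808). Its E19.5 levels were 3.17 and 2.36 FPKM (wild type), 2.74 and 3.01 (KO2) and 1.74 and 2.33 (KO7), and none of these groups passed against another. The KO3 effect minus the KO2 effect was -1.61 ± 0.40 log2 units and did not pass (adjusted p = 0.0769).

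The balance of the receptors was read as the ratio of Nr3c1 to Nr3c2 FPKM in each library. At E19.5 the wild-type ratios were 1.39 and 1.91, those of KO2 1.61 and 1.03, and those of KO7 1.75 and 1.48. Adult ratios were 2.90 and 2.61 in set 1, 1.62 and 1.90 in KO2, 2.06 and 2.31 in set 2, and 3.24 and 5.93 in KO3. Adult KO2 lay below its wild-type set and KO3 above its own without overlap. The ratio was not tested.

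**Figure D2:**
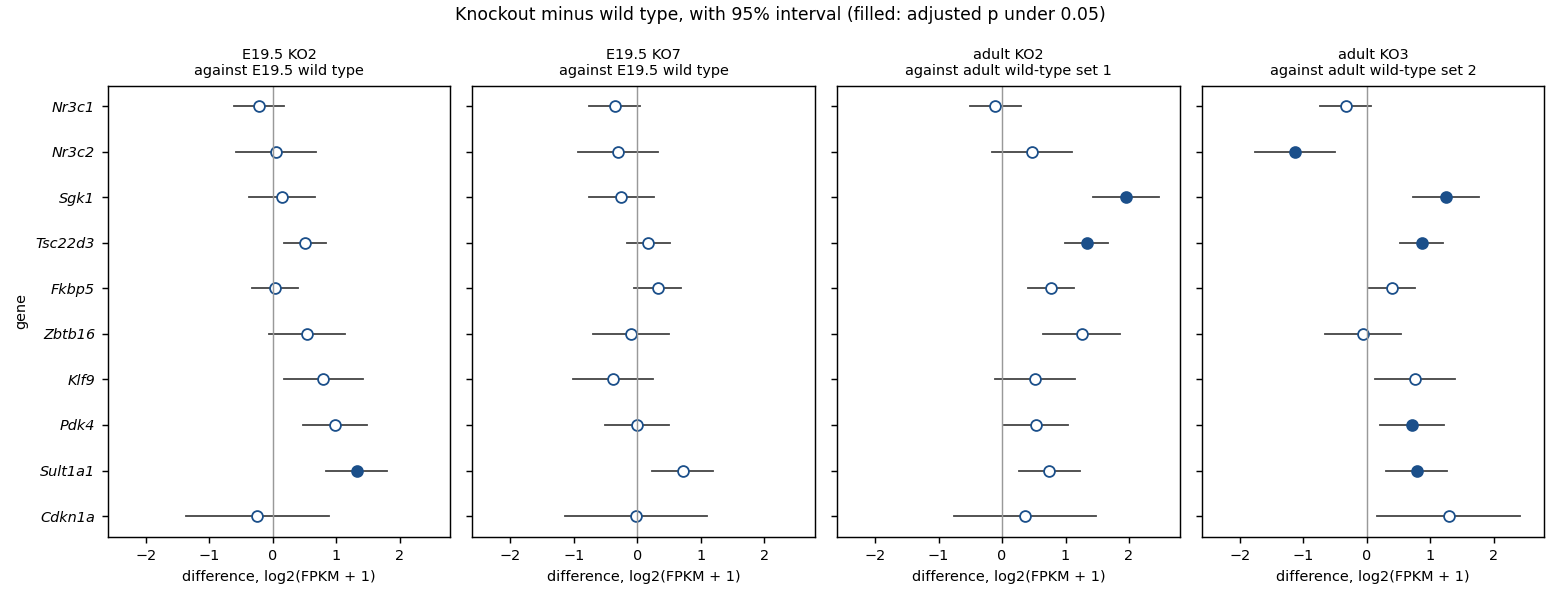
Difference in log2(FPKM + 1), knockout minus wild type, with its 95% interval from limma, for the 10 genes in the 4 knockout comparisons; filled points have an adjusted p under 0.05. Sgk1 and Tsc22d3 are filled in both adult panels, and Sult1a1 is the filled point in the E19.5 KO2 panel.

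In adult KO2 the targets Sgk1 and Tsc22d3 rose, and 2 of the 10 genes passed against 0.154% of all tested genes (22 of 14322). Sgk1, a kinase that stabilizes sodium channels and is induced within hours by corticosteroids, had 17.3 and 16.5 FPKM in set 1 and 63.4 and 73.8 in KO2. The rise was 1.96 ± 0.24 (SE) log2 units, 3.88-fold on FPKM + 1 (adjusted p = 0.00837), the 6th smallest p of all tested genes. Tsc22d3 (GILZ), a leucine zipper protein that carries part of the anti-inflammatory action of glucocorticoids, had 20.7 and 23.3 FPKM in set 1 and 61.9 and 52.2 in KO2. It rose by 1.33 ± 0.15 log2 units (adjusted p = 0.00729), the 5th smallest p. For both genes the groups are far apart compared with the spread of each pair.

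The other targets leaned the same way in adult KO2 without passing. Zbtb16 (PLZF), a zinc finger repressor used as a marker of glucocorticoid exposure, had 7.78 and 5.34 FPKM in set 1 and 20.5 and 13.7 in KO2 (1.25 log2 units, adjusted p = 0.184). Fkbp5, a cochaperone that lowers the receptor's hormone affinity and closes a feedback loop, had 7.03 and 7.20 FPKM in set 1 and 14.4 and 11.5 in KO2 (0.77, adjusted p = 0.184). In both genes every KO2 library lay above every wild-type library. Sult1a1, a phenol sulfotransferase, had 5.24 and 4.58 FPKM in set 1 and 10.2 and 7.80 in KO2 (0.75, adjusted p = 0.374). Pdk4, a kinase that shuts down pyruvate dehydrogenase, had 4.02 and 3.86 FPKM in set 1 and 6.25 and 6.001 in KO2 (0.53, adjusted p = 0.658). Klf9, a Krüppel-like factor of glucocorticoid and thyroid hormone response, had 45.6 and 37.3 FPKM in set 1 and 66.5 and 53.2 in KO2 (0.52, adjusted p = 0.768). Cdkn1a (p21), a cell cycle inhibitor, overlapped between the groups, with 10.1 and 7.69 FPKM in set 1 and 18.9 and 7.08 in KO2. In all, 8 of the 10 genes lay above set 1 without overlap, where 30.0% of tested genes did, 9 had a positive difference, and the median difference was 0.64 against 0.04 over all tested genes.

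The adult KO2 calls are sensitive to single libraries and to the choice of wild type. Sgk1 missed the threshold without set 1 replicate 1 (adjusted p = 0.0676), set 1 replicate 2 (0.0552) or KO2 replicate 1 (0.0503), and Tsc22d3 without set 1 replicate 1 (0.0720) or KO2 replicate 1 (0.0659); the Sgk1 difference stayed between 1.85 and 2.06 and that of Tsc22d3 between 1.21 and 1.45. With both wild-type sets as 1 group they were 1.52 (adjusted p = 0.181) and 0.96 (0.412). Fitted on adult libraries alone, Sgk1 missed the threshold (0.124) and Tsc22d3 passed (0.0476). Marker lists moved in the same comparison: 1 of 6 hippocampal markers passed and 5 lay above set 1, with a list median of 0.85. Their summed levels were 65.1 and 71.0 FPKM in KO2 against 58.4 and 62.0. Much of these sums is Wfs1, the marker that fell, at 37.3 and 37.8 FPKM in KO2 against 46.2 and 45.9. All 5 erythroid genes lay above set 1, with sums of 543 and 531 FPKM against 24.6 and 356. All 7 choroid plexus genes also lay above it, none called, with sums of 1174 and 123.8 against 344 and 171. All 6 pericyte genes lay below it, none called, with sums of 62.2 and 60.8 FPKM against 72.5 and 74.2. Meningeal sums (27.2 and 29.9 against 50.7 and 38.2) and pituitary sums (4.81 and 17.2 against 20.0 and 34.4) were also lower, with none of either list called. The astrocyte sums overlapped, at 1403 and 1531 FPKM in KO2 and 1510 and 1453 in set 1. The part of these lists in the members' differences was not tested.

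In adult KO3 the same pair of targets rose, along with Sult1a1 and Pdk4, in a comparison where many genes changed: 4 of the 10 genes were higher and 1 lower, against 22.1% of all tested genes (13.9% higher, 8.2% lower). Sgk1 had 43.1 and 23.2 FPKM in set 2 and 66.4 and 88.2 in KO3, a rise of 1.25 ± 0.24 log2 units (adjusted p = 0.0111). Tsc22d3 had 38.6 and 36.1 FPKM in set 2 and 62.0 and 76.7 in KO3, a rise of 0.87 ± 0.15 (adjusted p = 0.0101). The groups do not overlap for either gene, although the Sgk1 wild-type libraries differ widely from each other. Sult1a1 had 4.46 and 5.05 FPKM in set 2 and 6.96 and 11.4 in KO3 (0.79, adjusted p = 0.0299). Pdk4 had 2.66 and 2.33 FPKM in set 2 and 6.65 and 3.28 in KO3 (0.71, adjusted p = 0.0473). In both genes a single KO3 library carries most of the difference, replicate 2 for Sult1a1 and replicate 1 for Pdk4.

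Klf9, Cdkn1a and Fkbp5 were higher in both KO3 libraries than in either of set 2 but did not pass. Klf9 had 62.2 and 61.9 FPKM in set 2 and 74.9 and 148 in KO3 (0.75, adjusted p = 0.0767). Cdkn1a had 12.1 and 9.60 FPKM in set 2 and 14.7 and 51.9 in KO3 (1.29, adjusted p = 0.0867). Fkbp5 had 7.25 and 8.21 FPKM in set 2 and 8.56 and 12.8 in KO3 (0.40, adjusted p = 0.103). In these 3 genes replicate 2 was above replicate 1. In all, 7 of the 10 genes lay above set 2 without overlap, where 29.2% of tested genes did. Zbtb16 overlapped, with 10.5 and 12.3 FPKM in set 2 and 7.81 and 15.1 in KO3.

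Which members passed in KO3 depends on the fit and on the library that stands apart. Fitted on adult libraries alone none of the 5 calls held (adjusted p = 0.0634 to 0.118), and with no filter on low values Sgk1 (0.0263) and Tsc22d3 (0.0213) passed, while Nr3c2 (0.0511), Sult1a1 (0.0603) and Pdk4 (0.0913) did not. Without KO3 replicate 2, 1 of the 10 passed (Pdk4, 1.13, adjusted p = 0.0272) against 2.07% of tested genes, and the values were 1.05 for Sgk1 (0.0694), 0.72 for Tsc22d3 (0.0544) and 0.47 for Sult1a1 (0.244). Without KO3 replicate 1, 8 passed against 47.3%, and Pdk4 was 0.29 (0.210). Leaving out set 2 replicate 1 gave 1.68 (0.0398) for Sgk1 and 0.91 (0.0608) for Tsc22d3, and Sult1a1 and Pdk4 missed the threshold without either wild-type library (0.0762 to 0.156). Summed erythroid genes were 965 and 1008 FPKM in KO3 against 117 and 60.8 in set 2, with 2 of 5 called higher. The astrocyte sums were 1387 and 1380 FPKM in KO3 against 1289 and 1144, with 1 of 10 called higher. However, 6 of the 10 astrocyte genes had a negative difference and 4 a positive, with a median of -0.08. The part of either list in the members' values was not tested.

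Sgk1 and Tsc22d3 also differed between the wild-type sets, which bears on any adult level. Set 2 was above set 1 by 0.87 ± 0.24 log2 units for Sgk1 (adjusted p = 0.0243) and 0.74 ± 0.15 for Tsc22d3 (0.00708), and 2 of the 10 genes passed against 20.9% of all tested genes (6.84% higher). Sgk1 ranged from 16.5 to 43.1 FPKM over the 4 adult wild-type libraries, and every knockout library lay above that range. Without set 2 replicate 1 the Sgk1 difference between the sets was 0.44 (0.159), and it missed the threshold without set 1 replicate 1 (0.0938) or replicate 2 (0.106); that of Tsc22d3 missed it without set 1 replicate 1 (0.0616). The sets differ in column handling and in cell markers. In set 2, 5 of 8 microglial, 3 of 11 oligodendrocyte and 4 of 7 meningeal genes were called lower, beside 14% of all tested genes. The meningeal list holds Col3a1, which is listed at 0 in set 2, and such a 0 cannot be read as absence. The source of the Sgk1 and Tsc22d3 difference between the sets therefore cannot be told apart.

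The KO2 and KO3 effects share no libraries, and 6 of the 10 genes were higher without overlap in both (Sgk1, Tsc22d3, Fkbp5, Sult1a1, Pdk4 and Klf9), as were 8.68% of tested genes; 1, Nr3c1, was lower in both, as were 3.69%. None of the 10 passed a test of the KO3 effect minus the KO2 effect, where 0.0489% of tested genes passed, and 2 members had an unadjusted p under 0.05, as had 28.1% of tested genes. That difference was -0.71 ± 0.33 for Sgk1 (adjusted p = 0.187) and -0.47 ± 0.22 for Tsc22d3 (0.186), and with both wild-type sets as 1 group it was 0.16 and 0.28, so its direction is open to the choice of wild type. The mean of the 2 effects, a comparison added after the data were seen, was 1.60 ± 0.17 log2 units for Sgk1 (adjusted p = 0.00319), 1.1 ± 0.11 for Tsc22d3 (0.00319), 0.77 ± 0.15 for Sult1a1 (0.0390) and 0.58 ± 0.12 for Fkbp5 (0.0390). These 4 of 10 genes rose, against 2.83% of tested genes (2.54% higher), and all 4 were higher in 4 of 4 knockout libraries. Leaving out any 1 of the 8 adult libraries kept Sgk1 (1.39 to 1.82) and Tsc22d3 (1.02 to 1.17) past the threshold, whereas Sult1a1 and Fkbp5 each passed in 1 of these 8 fits, that without KO3 replicate 1. With both wild-type sets as 1 group, or with adult libraries alone, none of the 10 passed.

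In E19.5 KO2 Sult1a1 rose and Sgk1 did not pass. Wild-type libraries held Sult1a1 at 2.47 and 3.21 FPKM and KO2 libraries at 8.32 and 8.82, a rise of 1.32 ± 0.22 log2 units, 2.502-fold on FPKM + 1 (adjusted p = 0.0187). It was the 1 gene of 10 that passed, against 1.28% of all tested genes. The call was lost without any 1 of the 4 libraries (adjusted p = 0.0537 to 0.209), at differences of 1.18 to 1.46. Pdk4, again wild type first, was at 1.03 and 0.67 FPKM against 3.06 and 2.21 (0.97, adjusted p = 0.0698). Klf9 was at 6.79 and 5.28 FPKM against 10.5 and 11.8 (0.80, adjusted p = 0.201). Tsc22d3 was at 17.0 and 15.9 FPKM against 25.9 and 21.8 (0.51, adjusted p = 0.143), and Zbtb16 had 3.22 and 3.59 against 6.09 and 4.81 (0.54, adjusted p = 0.356). These 4 lay above the wild type in both libraries, as did 27.3% of tested genes. Sgk1, at 16.8 and 15.6 FPKM against 16.2 and 20.1, overlapped, as did Fkbp5 (13.7 and 14.9 against 15.2 and 14.2) and Cdkn1a (22.9 and 33.5 against 21.3 and 25.5).

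The adult minus E19.5 difference of the KO2 effect was 1.81 ± 0.33 log2 units for Sgk1, the largest in size of the 10 and the 39th smallest p of all tested genes, and it did not pass (adjusted p = 0.0688). It was 0.83 ± 0.22 for Tsc22d3 (0.140) and 0.74 ± 0.24 for Fkbp5 (0.214). None of the 10 passed, where 0.0628% of tested genes did, and 3 had an unadjusted p under 0.05, as had 14.8%; under quantile scaling 1 member, Sgk1, passed (1.71, adjusted p = 0.0432). The stage dependence of these effects was therefore not past the threshold.

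In E19.5 KO7 none of the 10 genes passed by limma, where 4.45% of all tested genes did, and 1 had an unadjusted p under 0.05, as had 21.1% of all tested genes. That gene was Sult1a1, with 6.24 and 4.44 FPKM against 2.47 and 3.21 in wild type (0.72, adjusted p = 0.0911). Fkbp5, at 18.3 and 17.8 FPKM, lay above wild type, and Sgk1, at 14.1 and 12.8, lay below it; 30.7% of tested genes lay above without overlap. Klf9 (5.69 and 3.27 FPKM), Pdk4 (0.78 and 0.89), Tsc22d3 (21.0 and 16.5), Zbtb16 (3.30 and 2.91) and Cdkn1a (33.8 and 21.9) overlapped wild type.

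Set against each other, the knockouts of E19.5, whose sex and line cannot be told apart, differed in Klf9 and Pdk4. Both were lower in KO7 than in KO2, by -1.19 ± 0.29 log2 units for Klf9 (adjusted p = 0.0357) and -0.97 ± 0.23 for Pdk4 (0.0330). These 2 of 10 compare with 5.63% of all tested genes (3.23% higher, 2.4% lower). Each call was lost without any 1 of the 4 libraries (adjusted p = 0.0612 to 0.214), and both with a pseudocount of 10. Astrocyte markers differed in the same comparison, with 5 of 10 called lower and sums of 387 and 285 FPKM in KO7 against 561 and 521 in KO2. Of 11 oligodendrocyte genes 4 were called lower and 1 higher, and 6 of 7 meningeal, 2 of 8 endothelial and 2 of 6 pericyte genes were called higher. The part of these lists in the differences was not tested.

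**Figure D3:**
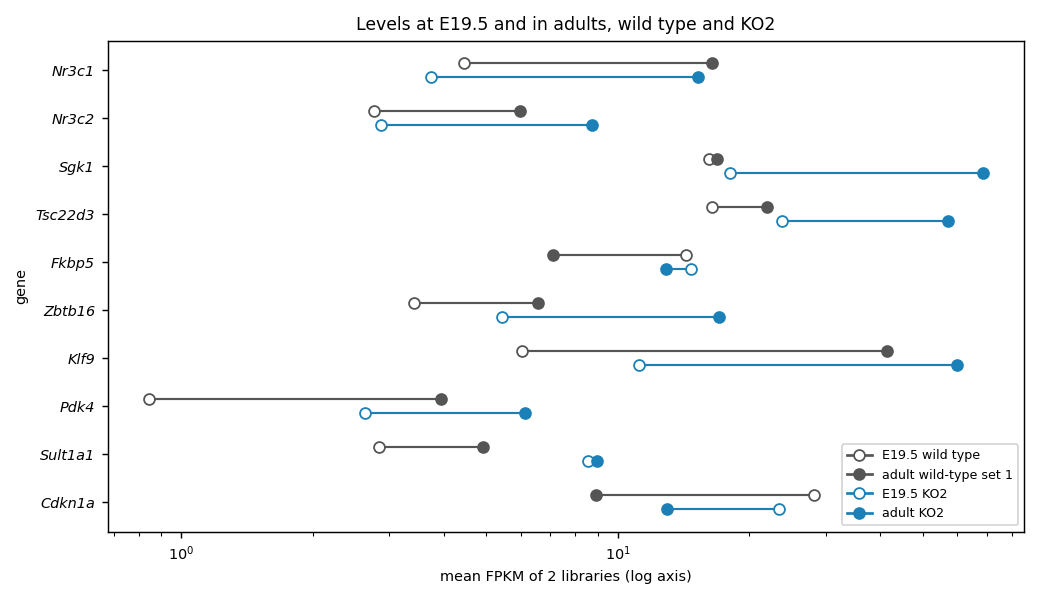
Mean FPKM of 2 libraries (log axis) of the 10 genes at E19.5 (open) and in adults (filled), for wild type (grey, adult set 1) and KO2 (blue). The Sgk1 wild-type points nearly coincide while the KO2 points are far apart, and the Fkbp5 wild-type points run from higher at E19.5 to lower in adults.

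Between E19.5 and adult wild type (set 1) both receptors and most targets rose, and Fkbp5 and Cdkn1a fell. The median of all tested genes was -0.15 in this comparison and 0.00 under median-of-ratios scaling, and no called member changed direction with the scaling. Cell markers shifted widely in the same comparison: 8 of 8 microglial, 9 of 11 oligodendrocyte, 8 of 10 astrocyte and 6 of 8 neuronal genes were called higher, with list medians of 1.96, 3.46, 1.54 and 1.05 log2 units. Of the neuronal genes 1 was called lower, and the lowest difference of that list was -2.33. The part of these lists in the members' changes was not tested. Klf9 rose by 2.59 ± 0.29 log2 units (adjusted p = 2.01e-05), Nr3c1 by 1.68 ± 0.18 (1.71e-05), Pdk4 by 1.43 ± 0.23 (0.000312) and Nr3c2 by 0.90 ± 0.29 (0.0192). Smaller rises were those of Zbtb16 (0.76, 0.0335), Sult1a1 (0.63, 0.0294) and Tsc22d3 (0.40, 0.0449). Fkbp5 fell from 13.7 and 14.9 FPKM to 7.03 and 7.20 (-0.92 ± 0.17, adjusted p = 0.000725), and Cdkn1a from 22.9 and 33.5 to 10.1 and 7.69 (-1.55 ± 0.51, 0.0229). Sgk1 differed by 0.06 (adjusted p = 0.844; 95% interval -0.46 to 0.58). These 7 higher and 2 lower of 10 compare with 56.0% of all tested genes called (21.9% higher, 34.1% lower). Klf9, Nr3c1, Pdk4 and Fkbp5 passed without any 1 of the 4 libraries. Tsc22d3 passed in none of these fits, at 0.32 to 0.48, and Nr3c2, Zbtb16, Sult1a1 and Cdkn1a each passed in 1 of the 4 such fits (highest adjusted p 0.115, 0.220, 0.174 and 0.127).

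In KO2 the same step from E19.5 to adult raised 7 of the 10 genes, against 49.3% of all tested genes called (20.7% higher, 28.6% lower), and each of the 7 passed without any 1 of the 4 libraries. Markers called higher there were 8 of 8 microglial, 8 of 11 oligodendrocyte, 6 of 10 astrocyte and 6 of 8 neuronal genes, and 1 neuronal gene was called lower. The part of these lists was not tested either. Klf9 rose by 2.31 log2 units (adjusted p = 6.40e-05), Sgk1 by 1.87 (7.24e-05), Nr3c1 by 1.79 (1.51e-05) and Zbtb16 by 1.47 (0.00106). Nr3c2 rose by 1.33 (0.00267), Tsc22d3 by 1.22 (7.06e-05) and Pdk4 by 0.98 (0.00440). Sult1a1, Fkbp5 and Cdkn1a did not pass, and the KO2 levels of Sult1a1 at the 2 stages overlapped.

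**Figure D4:**
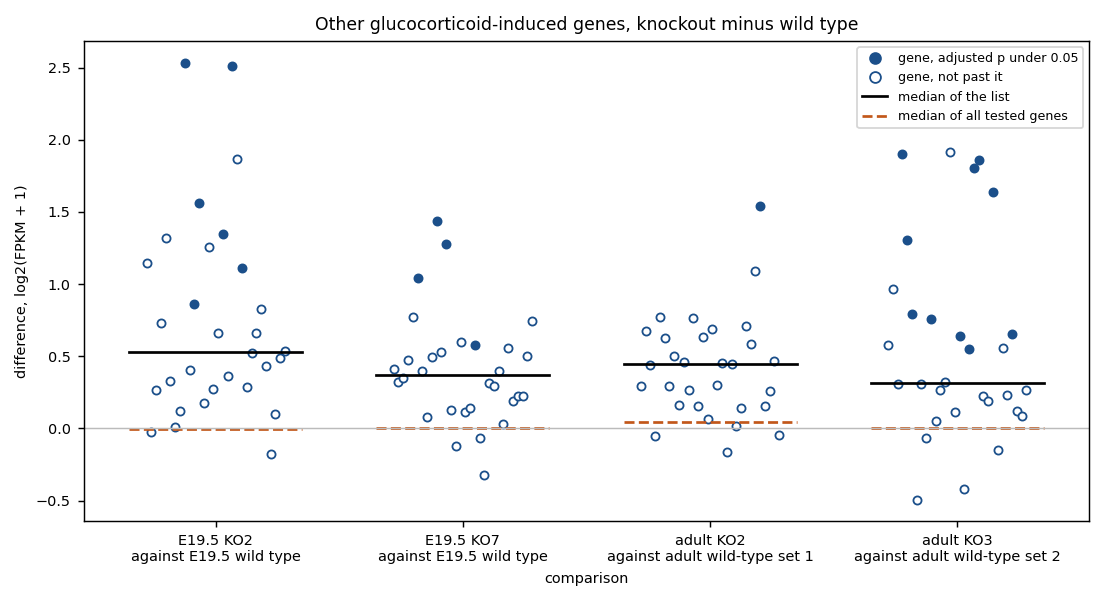
Difference in log2(FPKM + 1), knockout minus wild type, of the 30 other glucocorticoid-induced genes in the 4 comparisons; filled points have an adjusted p under 0.05, the solid line is the median of the list and the dashed line that of all tested genes. All filled points lie above 0, and the list's median lies between 0.31 and 0.53.

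A wider list held 30 other glucocorticoid-induced genes, all of them tested. In E19.5 KO2, 6 of the 30 rose and none fell, where 0.88% of all tested genes rose and 0.398% fell, with a median difference of 0.53 against -0.01 over all tested genes. Fam107a, an actin-binding stress protein, was at 1.51 and 1.28 FPKM in wild-type libraries and at 14.1 and 11.7 in KO2 (2.53, adjusted p = 0.000513). Hif3a, a hypoxia-factor family member induced by dexamethasone in several tissues, had 1.14 and 0.91 FPKM against 5.20 and 4.76 (1.56, adjusted p = 0.00269). Mertk, a phagocytic receptor kinase, rose by 1.34 (0.00952) and Ndrg2 by 1.11 (0.0130). The count was 2 to 4 when 1 library was left out, and Fam107a and Hif3a passed in each of these fits. Astrocyte markers, to which Ndrg2 and Mertk are also known to belong, were all 10 above wild type in this comparison, with 1 called. Their median difference was 0.72, larger than the 0.53 of the induced list, and their sums were 561 and 521 FPKM in KO2 against 254 and 303. Erythroid genes were above wild type in 5 of 5, with 2 called, and 2 of 11 oligodendrocyte genes were called higher. The part of these lists in the result was not tested.

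In E19.5 KO7, 4 of the 30 rose and none fell, where 3.02% of all tested genes rose (list median 0.37 against 0.005), whereas 7 of the 10 members lay below wild type, with a median of -0.06. Hif3a had 4.10 and 3.70 FPKM (1.27, adjusted p = 0.00263) and the connexin gene Gjb6 11.7 and 8.40 against 2.44 and 3.75 in wild type (1.44, 0.00301), while Mfsd2a, the brain endothelial lipid transporter, rose by 0.57 (0.0284) and Ddit4, an mTOR inhibitor, by 1.04 (0.0342). The count was 2 without any 1 of the 4 libraries. Meningeal fibroblast markers were called higher in 6 of 7 genes (sums of 194.5 and 170 FPKM against 61.1 and 88.9), and 2 of 8 endothelial and 2 of 6 pericyte markers were. All 5 erythroid genes lay above wild type, with 2 called, a median of 1.73 and sums of 2641 and 2478 FPKM against 95.01 and 519.5; the part of these lists was not tested. Compared with KO2 directly, KO7 was lower in Fam107a (-2.04, adjusted p = 0.000538), Mertk (-1.20, 0.00616) and the metallothionein Mt1 (-2.58, 0.00713) and higher in Gjb6 (1.03, 0.0101). Sex and line cannot be told apart in that comparison.

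In adult KO2, 1 of the 30 passed and was higher, where 0.105% of all tested genes rose and 0.0489% fell. This was the lipid droplet gene Plin4, with 0.72 and 0.92 FPKM in set 1 and 4.76 and 3.86 in KO2 (1.54 ± 0.17, adjusted p = 0.00660). It missed the threshold without set 1 replicate 1 (0.0546) or KO2 replicate 1 (0.0503), and with both wild-type sets as 1 group (1.1, adjusted p = 0.421). Plin4 had 2.26 and 2.42 FPKM in set 2 and 2.26 and 3.70 in KO3, and it was higher in set 2 than in set 1 (0.88, adjusted p = 0.00463). The median of the list in adult KO2 was 0.44 against 0.04 over all tested genes. Without overlap, 20 of the 30 lay above set 1, where 30% of tested genes did, and 1 lay below, where 16.2% did.

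In adult KO3, 10 of the 30 rose and none fell, where 13.9% of all tested genes rose and 8.2% fell. The stress-induced factor Cebpb had 2.24 and 1.68 FPKM in set 2 and 5.19 and 18.6 in KO3 (1.90, adjusted p = 0.0135). The metallothioneins Mt1 and Mt2 rose by 1.80 (0.0191) and 1.86 (0.0182), and Mfsd2a by 0.55 (0.0168). The wild-type sets differ in both metallothioneins, with set 2 below set 1 by -1.99 for Mt1 (adjusted p = 0.00853) and -1.66 for Mt2 (0.0210), and the mean Mt1 level in KO3, 1863 FPKM, was close to the 1873 of set 1. Cebpb, Mt1 and Mt2 were far higher in replicate 2 than in replicate 1. Without KO3 replicate 2 the differences of Cebpb, Mt1 and Mt2 were 1.07, 1.07 and 1.08, and without replicate 1 they were 2.73, 2.53 and 2.64. For Mfsd2a they were 0.38 and 0.72. The count of 10 depended on single libraries, of KO3 and of set 2. Of the 30, 14 lay above the wild-type set without overlap in both adult knockouts and none lay below in both, beside the 8.68% and 3.69% of tested genes given above.

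Genes that act on the receptor were also called in KO3. Of 15 chaperones and coregulators, 5 rose and 2 fell in adult KO3, where 13.9% of all tested genes rose and 8.2% fell: the cochaperone Ptges3 (p23) had 44.7 and 50.1 FPKM in set 2 and 74.1 and 71.4 in KO3 (0.61, adjusted p = 0.0116), Hsp90aa1, which holds the receptor ready for hormone, rose by 0.75 (0.0167; -0.02 under quantile scaling), Bag1 rose by 0.69 (0.0249) and the coactivator Ncoa2 fell by 0.79 (0.0181). Without KO3 replicate 2, Ptges3 passed (0.64, adjusted p = 0.0451), while Hsp90aa1 (0.56, 0.0806), Bag1 (0.45, 0.191) and Ncoa2 did not (-0.49, 0.122). Of the 6 tested genes of corticosteroid metabolism and transport, H6pd, which supplies cofactor to the hormone-regenerating enzyme Hsd11b1, fell in KO3 (-0.74, adjusted p = 0.0188; -0.44, 0.137 without KO3 replicate 2), and 1 of 6 is a share near that of all tested genes. In E19.5 KO2, E19.5 KO7 and adult KO2 none of the 15 and none of the 6 passed by limma, where 1.28%, 4.45% and 0.154% of all tested genes did.

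Hormone-handling genes differed between the stages in wild type, where 21.9% of all tested genes rose and 34.1% fell. Hsd11b1, which regenerates active corticosterone, rose from 0.77 and 1.29 FPKM at E19.5 to 7.94 and 6.47 in adult set 1 (2.02, adjusted p = 8.65e-06). Hsd11b2, which inactivates it and shields the fetal brain, fell from 0.91 and 1.12 FPKM to 0.00 and 0.15 (-0.91, adjusted p = 0.000387). Abcb1a, an efflux pump of the blood-brain barrier, rose by 1.18 (0.000956) and Srd5a1 fell by 0.65 (0.00591). Of 15 chaperones and coregulators 5 fell and none rose, a share of falls near that of all tested genes, with Ptges3 the first by p (-0.74, adjusted p = 0.000321). Of 7 tested stress axis genes 4 rose and 1 fell, with Crhbp, the binding protein of Crh, up by 1.77 (1.09e-05), Crh by 1.11 (0.00452) and Avpr1a down (-0.84, 0.00133). Avpr1a, like Hsd11b2, reached 1 FPKM only in E19.5 libraries, and the 4 that rose include a gene that reached it only in adult ones. Of the 30 other induced genes 16 rose and 2 fell between the stages in wild type, led by Fam107a (5.25, adjusted p = 2.86e-08), Glul (2.61, 2.28e-07), Gjb6 (2.85, 4.87e-07) and Ndrg2 (2.19, 1.48e-06), beside the rise of 8 of 10 astrocyte markers, whose part was not tested. In KO2, Hsd11b1 rose between the stages by 2.34 (4.40e-06) and Hsd11b2 was lower in adults by 0.76 (0.00157), under the same limit of the filter.

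Likeness over the 14 libraries was measured as the root-mean-square distance between log2 values centred on each gene's mean, and the 3 nearest of all tested genes are named. Sgk1 was nearest to Tsc22d3 (0.33), then Plin4 (0.40) and Gm129 (0.44), of which Tsc22d3 is a member and Plin4 is on the wider list. Nr3c1 was nearest to Ogfod1 (0.17), Gabra4 (0.18) and Setd7 (0.18). Nr3c2 was nearest to Pptc7 (0.19), Sort1 (0.19) and Usp31 (0.20), and Fkbp5 to Zfp330 (0.19), Hsd17b10 (0.20) and Azi1 (0.20). The centred values of Nr3c1 span 2.52 log2 units, those of Sgk1 2.69 and those of Fkbp5 1.27. These distances describe 14 libraries that share groups and stages, and carry no test.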

How the data were processed

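The authors deposited FPKM for all 14 libraries in a single table. Tools listed, without roles, in the submitters' processing notes are Cufflinks 2.2.1, TopHat2 2.1.1 and CASAVA, and the build is mm9. Annotation, filters and strandedness were not stated there. A residual header word reads FPKM for 10 libraries; the 4 of adult KO3 and set 2 carry none, were taken as FPKM, and there no gene above 0 has its highest value under 1.02. The 2 entries naming no gene were left out. Here, values became log2(FPKM + 1), so that fold changes understate low genes. Genes reaching 1 FPKM in 2 or more libraries were fitted as 7 group means over all 14 libraries (7 residual degrees of freedom) with limma 3.58.1 in R 4.3.3 (trend, 2-sided, Benjamini-Hochberg adjustment over 14322 genes, threshold 0.05). The fit was also run on simulated data with the same spread in every library, which does not cover a library such as adult KO3 replicate 2. No result above rests on that run. Depth is unknown, so no counting interval is given. All 10 members are named; from the 4 lists of other induced genes, chaperones and coregulators, metabolism and stress axis, up to 4 called genes per comparison are named by smallest p; markers are given beside results. Members and lists were chosen with earlier results of these data known. Alternatives were the pseudocount (0.1 and 10), no filter, other scalings, pooled wild types, single-stage fits, a replicate block and leaving out each library. Promoter windows are from RefSeq (GRCm38.p6); no genome coordinates of the files' build were used.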

Additional observations from a re-analysis of the deposited data

Results flagged for a closer look

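The KO2 effect on Fam107a differed between the stages by a test of the difference itself: adult minus E19.5 was -2.38 log2 units (limma, adjusted p = 0.0174). At E19.5 the wild-type libraries held Fam107a at 1.51 and 1.28 FPKM and those of KO2 at 14.1 and 11.7, whereas adult levels were 103.6 and 78.7 in set 1 and 109.1 and 93.4 in KO2. Over the alternatives the adjusted p ran from 0.0126 to 0.0931, and the call was lost with a pseudocount of 10 (-0.86), without either E19.5 wild-type library (0.0795 and 0.0540), E19.5 KO2 replicate 1 (0.0820), set 1 replicate 1 (0.0750) or adult KO2 replicate 1 (0.0508). Glial markers moved in the same contrast: all 10 astrocyte genes had a negative difference (median -0.84, 7 with an unadjusted p under 0.05), as had all 11 oligodendrocyte genes (median -0.73), and none of either list passed the adjusted threshold. Their part in the Fam107a value was not tested.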

How the results depend on the processing

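Over the 11 comparisons, 32 of the 110 member values passed. No called value changed sign in any alternative run, and 11 stayed past the threshold in all of them; 35 of 1400 alternative values changed sign, all of uncalled members and none past the threshold. Counts of members called moved as follows, and the cause was not tested. E19.5 KO2 (1 called) gave 2 with a pseudocount of 0.1, quantile scaling or libraries of 1 stage, and 0 to 0 without single libraries. E19.5 KO7 (0) gave 1 with libraries of 1 stage. Adult KO2 (2) gave 0 with pooled wild types, 1 with adult libraries alone, and 0 to 2 without single libraries. Adult KO3 (5) gave 2 with no filter, 0 with adult libraries alone, and 1 to 8 without single libraries. Adult against E19.5 wild type (9) gave 4 to 6 without single libraries. The adult minus E19.5 KO2 effect (0) gave 1 under quantile scaling. The KO3 minus KO2 effect (0) gave 0 to 2 without single libraries, and its Sgk1 and Tsc22d3 values turned to 0.16 and 0.28 with pooled wild types. KO7 against KO2 (2) gave 0 with a pseudocount of 10, no filter or pooled wild types, and 0 to 0 without single libraries. Set 2 against set 1 (2) gave 1 with adult libraries alone and 0 to 2 without single libraries. The mean adult effect (4) gave 2 with no filter, quantile or median-of-ratios scaling, 0 with pooled wild types or adult libraries alone, and 2 to 10 without single libraries. Hsp90aa1 in KO3 turned to -0.02 under quantile scaling. A fit with the replicate number as a block gave the same counts of members (1, 0, 2, 5, 9, 7, 0, 0, 2, 2 and 4). The numbers do not pair libraries: deviations of same-numbered libraries correlated at -0.333 to 0.233 between groups. FPKM without totals leaves the precision of low members such as Pdk4 unknown.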

Other observations

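Stress axis peptides differed widely between adult libraries of the same group. Avp, the vasopressin gene, had 45.5 and 125 FPKM in set 1, 0.47 and 96.1 in KO2, 23.2 and 35.8 in set 2, and 38.6 and 145 in KO3. Pomc, the precursor of the pituitary hormone that drives adrenal corticosterone release, had 3.82 and 18.2 FPKM in set 1 and 0.68 and 3.07 in KO2, and 1.19 and 1.70 in set 2 and 1.97 and 4.86 in KO3. The pituitary hormone gene Prl had 11.0 and 20.4 FPKM in set 1 and 2.13 and 8.48 in KO2. It is listed at 0 in set 2 and KO3, whose columns were handled differently before deposit, so a 0 there cannot be read as absence. In adult KO2 and in set 1 the replicate with less Avp also had less Pomc and Prl, and in set 2 and KO3 it also had less Pomc. Any link of these genes to the members' levels was not tested. Crh had 4.37 and 2.78 FPKM in set 1, 6.21 and 5.20 in KO2, 4.17 and 4.05 in set 2, and 4.98 and 9.80 in KO3; it lay above its wild-type set in both adult knockouts and passed the test in neither.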
